A study of Mus musculus with 12 samples.

Results

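The genes described here are 10 genes by which astrocytes and Bergmann glia maintain the tissue around neurons: Aqp4, Slc1a3, Slc1a2, Glul, Aldh1l1, Gja1, Gjb6, Gdf10, Ntsr2 and Slc4a4. They were chosen by name, 10 of the 12393 genes on the array, and all 23 probe sets that the platform annotation gives to them were taken from 22626 without the controls. The cerebellum of BALB/c mice had been profiled on 12 arrays in 4 groups of 3 animals: Npc1+/+ (wild type) at postnatal day 21 (P21), Npc1-/- (null) at P21, wild type at P49 and null at P49. Per the labels each array is a separate animal, 11 animals were female and 1 was male. All were on a standard diet with equal light and dark periods and genotyped by PCR. The labels name no allele beyond the genotype. The time point labels were used, although the text on tissue collection gives P21 for arrays of both ages. Npc1 encodes a late endosomal and lysosomal membrane protein that exports cholesterol, and its loss causes Niemann-Pick type C disease.

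Astrocytes take up glutamate and potassium released by neurons, move water and bicarbonate across their membranes, and are coupled to each other by gap junctions. Bergmann glia are the specialised astrocytes of the cerebellar cortex, whose fibres surround the dendrites and synapses of Purkinje cells. In bulk tissue such as this, fewer cells of a type and less RNA per cell cannot be told apart.

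Intensities are given as log2(intensity + 16) after quantile normalization, on which scale a difference of 1 is a doubling, and differences of dim genes are understated. A level can be compared between arrays for 1 probe set, but not between probe sets. Each gene was represented by its brightest probe set, and genes were tested when their mean over the 12 arrays reached 9.93. All 10 genes passed, by 0.15 for Slc1a2 and by 3.48 or more for the other genes, so none was tested only because it was high in 1 group except possibly Slc1a2. Of the 23 probe sets 21 passed. 1 of Aldh1l1 (mean 8.65) and 1 of Slc4a4 (mean 7.60) did not. "Called" means an adjusted p under 0.05 in limma over all 7835 genes tested, and errors of differences are standard errors with n = 3 per group.

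The cerebellar markers Pcp2 (Purkinje cells), Gabra6, Cbln1 and Zic1 (granule neurons) lay between 16.32 and 17.28 on all 12 arrays, far above the filter. Npc1 was lower on all 6 null arrays (8.25 to 10.53) than on all 6 wild-type arrays (11.06 to 11.75). The sex-linked genes Xist and Eif2s3y went against the label on wild-type P21 replicate 2 and null P21 replicates 2 and 3, which are labelled female, and on null P49 replicate 1, labelled male. Xist was 9.28, 13.01 and 13.36 on those P21 arrays and at least 15.61 on all others, and Eif2s3y was 12.72, 9.25 and 12.67 on the P21 arrays and 7.93 on null P49 replicate 1. On all arrays but those 3 P21 arrays Eif2s3y lay between 4.35 and 8.91, the highest on wild-type P49 replicate 1. The 9.25 of null P21 replicate 2 was close to that range, so its sex is less clear. Null P21 replicate 3 had a high Eif2s3y (12.67) with an Xist of 13.36, far above the 9.28 of wild-type P21 replicate 2. Its sex is therefore not clear either. Values without these 3 P21 arrays are given beside the main results that use P21 arrays. They leave null P21 replicate 1 as the only null P21 array, so they are sizes that rest on 1 animal and no comparison of groups. Null P21 replicate 2 also lay farthest from its group, with a root mean square deviation from the group mean of 0.355 over all tested genes against 0.153 to 0.274 on the other 11 arrays.

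Ntsr2 and Gdf10 moved in opposite directions with age in null animals, and the sequences before their start sites are shown so that a reader can see the regulatory DNA of a gene that rose and of one that fell, with that of Gja1, which rose on several of its probe sets. The sequences are those of RefSeq on GRCm38.p6, a C57BL/6J genome, and the 250 bases before the start are printed 5′ to 3′, with matches to the motifs searched in capitals.
Ntsr2, chr12:16653220-16653469, plus strand: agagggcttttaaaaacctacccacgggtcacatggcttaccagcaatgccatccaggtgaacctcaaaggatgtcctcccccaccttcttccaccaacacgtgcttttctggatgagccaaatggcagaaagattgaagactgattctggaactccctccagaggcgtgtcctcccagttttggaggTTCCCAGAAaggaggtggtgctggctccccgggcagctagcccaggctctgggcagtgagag
Gdf10, chr14:33923337-33923586, plus strand: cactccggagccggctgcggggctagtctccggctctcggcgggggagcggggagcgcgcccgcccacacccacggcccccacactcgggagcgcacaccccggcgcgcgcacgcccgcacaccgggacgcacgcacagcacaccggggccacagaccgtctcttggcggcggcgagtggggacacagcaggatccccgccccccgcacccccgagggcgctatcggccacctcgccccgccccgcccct
Gja1, chr10:56377050-56377299, plus strand: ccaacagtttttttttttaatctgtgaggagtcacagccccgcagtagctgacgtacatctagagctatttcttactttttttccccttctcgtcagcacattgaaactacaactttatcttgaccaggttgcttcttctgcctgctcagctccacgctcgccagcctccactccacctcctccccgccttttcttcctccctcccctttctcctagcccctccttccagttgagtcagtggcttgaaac
The motifs searched on both strands were those of STAT factors (TTCNNNGAA) and SOX factors (ACAATG), families with known roles in astrocyte genes. No match overlapped another. Promoters were available for 9 of the 10 genes, 10 in all, and none for Aqp4, which the search therefore did not cover. Of these promoters 2, of Ntsr2 and Slc1a3, held the STAT letters, which 7.02% of all 32851 promoters hold in the same window. In Ntsr2 the match began 62 bases before the start. None held the SOX letters, found in 10.7% of promoters. These are matches of letters and no evidence of binding.

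At P49 the null cerebellum had more transcript of the water channel gene Aqp4, and the gap junction gene Gja1 was higher on part of its probe sets, while the glutamate handling genes Slc1a3, Slc1a2 and Glul were not called. Of the 10 genes 1 was called at P49, Aqp4, which was higher, against 2.65% of all genes tested and 1.52% called higher. An unadjusted p under 0.05 in limma was found for 5 of the 10, a share not counted over all genes. Of these Aqp4, Gja1, Aldh1l1 and Gjb6 were higher and Slc1a3 was lower. The groups did not overlap for 4 genes, with Aqp4, Gja1 and Aldh1l1 higher and Slc1a3 lower, against 23.2% of all genes (11.2% higher and 12% lower). The median difference of the 10 genes was 0.26, with 8 positive, and that of all genes was -0.02.

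Aqp4 encodes aquaporin 4, the main water channel of astrocyte membranes, dense on the endfeet at vessels and the pial surface. It was 15.14, 15.19 and 15.57 in wild type at P21, 15.41, 15.51 and 15.40 in null at P21, 15.19, 15.18 and 15.09 in wild type at P49, and 15.82, 16.27 and 16.19 in null at P49. The 3 null P49 arrays lay above the other 9 arrays. At P49 Aqp4 rose by 0.94 ± 0.13 (1.91-fold, adjusted p = 0.000663 in limma). Its further probe set gave 1.10 ± 0.13 in a fit of all 13576 probe sets above the filter (adjusted p = 0.000282). Aqp4 remained called at P49 in all 24 alternative settings, with a difference of 0.84 to 1.07. At P21 the difference was 0.14 ± 0.13, with a 95% interval from -0.13 to 0.41, and it was 0.05 without the 3 arrays of doubtful sex label.

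**Figure D1:**
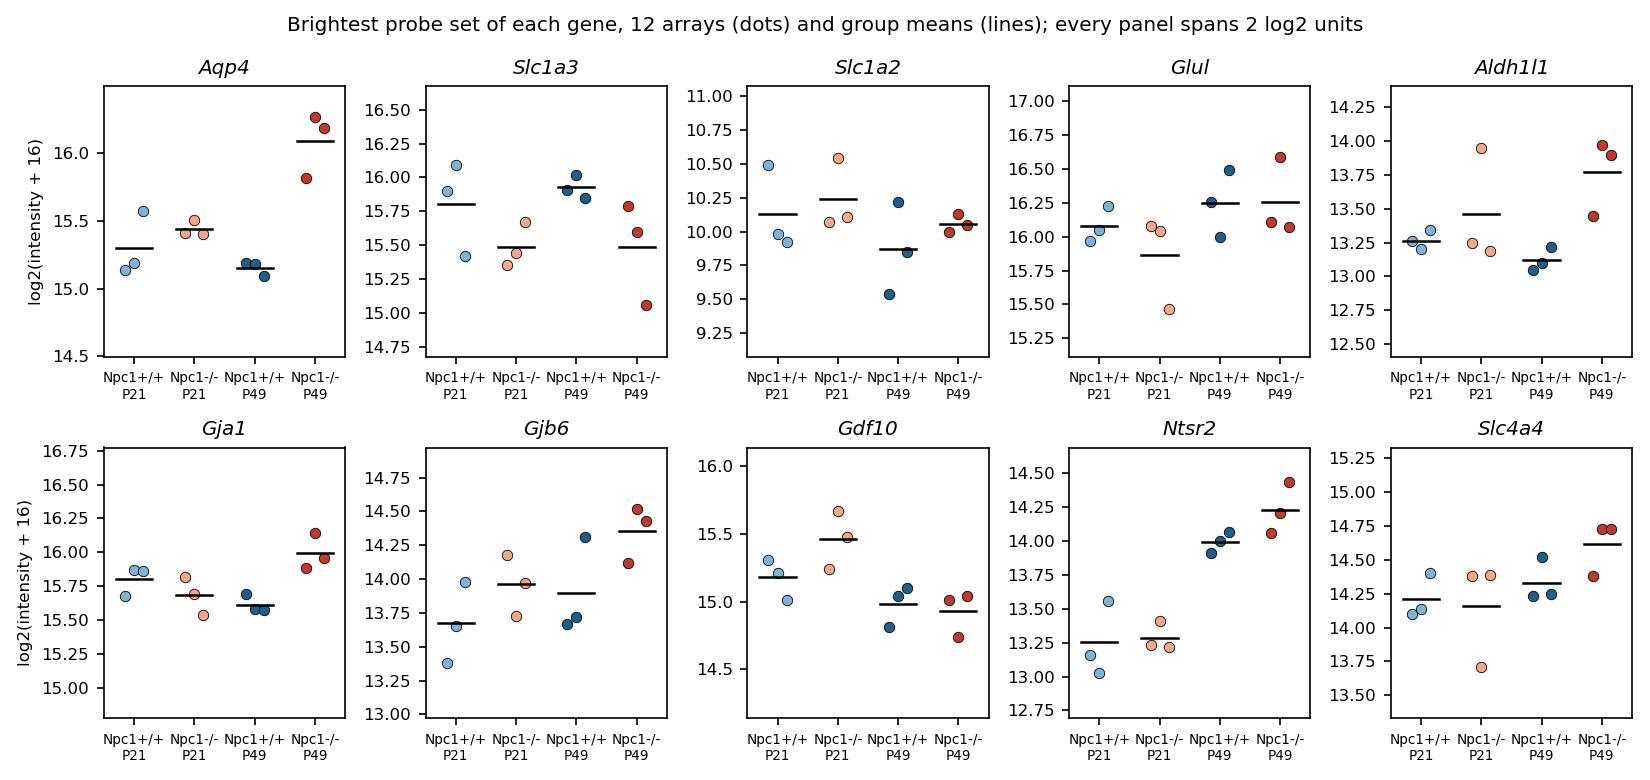
Levels of the 10 genes on the 12 arrays, as log2(intensity + 16) of the brightest probe set, with 1 dot per animal, a line at each group mean and a vertical span of 2 units in every panel. The null P49 arrays of Aqp4 (15.82 to 16.27) lie above all others, and Ntsr2 is higher at P49 than at P21 in both genotypes.

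Gja1 and Gjb6 encode connexin 43 and connexin 30, the channel proteins that couple astrocytes into a network. The brightest probe set of Gja1 was 15.69, 15.58 and 15.57 in wild type at P49 and 15.88, 16.14 and 15.96 in null at P49. These groups did not overlap, and the difference of 0.38 ± 0.10 narrowly missed the threshold (adjusted p = 0.0503 in limma). The call depended on the settings and on the arrays in the fit. Leaving out null P21 replicate 1 gave adjusted p = 0.0346 in limma, replicate 2 gave 0.0289, replicate 3 gave 0.0376 and null P49 replicate 1 gave 0.0475. The P21 arrays are not part of this contrast, and without any 1 of these null P21 arrays the difference stayed at 0.38. Gja1 was also called with a pseudocount of 64 (adjusted p = 0.0498) and with the arrays of the contrast alone (0.0113). Adjusted p lay between 0.0113 and 0.438 over the 24 alternatives.

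Gja1 has 6 probe sets, more than any other of the 10 genes, and they did not all behave alike. In the fit of probe sets 3 of the 6 were called higher at P49, against 2.08% of all probe sets (1.26% higher), with differences of 0.97 ± 0.20 (adjusted p = 0.0197), 0.49 ± 0.11 (0.0301) and 0.44 ± 0.10 (0.0333) in limma. The probe set with the largest of these, 1415801_at, was 13.20, 13.36 and 12.77 in wild type and 13.93, 14.31 and 14.01 in null animals. The brightest gave 0.38 (adjusted p = 0.0640), another 0.33 ± 0.26, and the dimmest, 1438973_x_at, -0.28 ± 0.61 with null values from 8.64 to 11.45. By the array maker's naming, a name ending in _x_at marks a probe set with probes that can also match other transcripts, which holds for 4 of the 6. The brightest, 1437992_x_at, is among these and stands for Gja1 in the results per gene. Of the 3 called at P49, 1415800_at and 1415801_at do not have that ending. At P21 the 6 differences lay between -0.22 and 0.30 and none was called, against 0.081% of all probe sets.

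Gjb6 was 13.67, 13.72 and 14.31 in wild type and 14.12, 14.52 and 14.43 in null animals at P49, so that the groups overlapped through wild-type P49 replicate 3. The difference was 0.46 ± 0.19 (adjusted p = 0.350 in limma), with a 95% interval from 0.05 to 0.87. At P21 it was 0.29 ± 0.19, also not called.

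**Figure D2:**
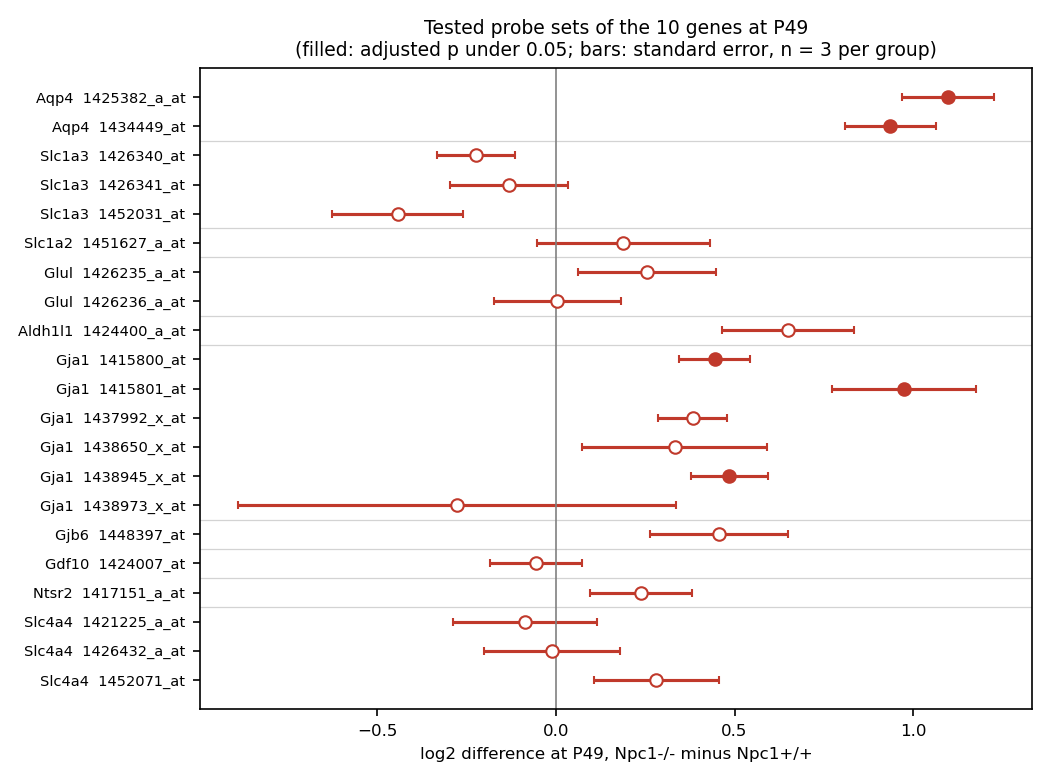
Difference between null and wild type at P49 (log2, x axis) for each of the 21 tested probe sets, as points with bars of 1 standard error, n = 3 per group. Filled points are called, namely both probe sets of Aqp4 (0.94 and 1.10) and 3 of the 6 of Gja1 (0.44 to 0.97).

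The glutamate transporters Slc1a3 (GLAST, the main transporter of Bergmann glia) and Slc1a2 (GLT-1) clear glutamate from the synapse, and Glul encodes glutamine synthetase, which converts it to glutamine. The brightest probe set of Slc1a3 was 15.90, 16.09 and 15.42 in wild type and 15.35, 15.44 and 15.67 in null at P21, and 15.91, 16.02 and 15.85 in wild type and 15.79, 15.60 and 15.06 in null at P49. The P49 groups did not overlap and null replicate 3 was the lowest. The difference of -0.44 ± 0.18 was not called (adjusted p = 0.339 in limma), and it was -0.23 without null P49 replicate 3. The other 2 probe sets of Slc1a3 gave -0.22 and -0.13 at P49, so that the 3 probe sets had the same sign and none was called. At P21 the brightest gave -0.32 ± 0.18 and the other 2 gave -0.01 and 0.09, and none was called.

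Glul was 16.26, 16 and 16.49 in wild type and 16.11, 16.59 and 16.07 in null animals at P49. The groups overlapped throughout, and the difference was 0.00 ± 0.18 with a 95% interval from -0.37 to 0.38. Its other probe set gave 0.26, not called although its groups did not overlap. Slc1a2 was measured by 1 dim probe set, between 9.54 and 10.54 on the 12 arrays. Its differences were 0.19 ± 0.24 at P49 and 0.11 ± 0.24 at P21, neither called, and its interval at P49 ran from -0.33 to 0.71.

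Aldh1l1 encodes the folate enzyme 10-formyltetrahydrofolate dehydrogenase and is widely used as a marker of all astrocytes. It was 13.05, 13.10 and 13.22 in wild type at P49 and 13.45, 13.97 and 13.90 in null at P49, and at P21 the wild-type arrays lay at 13.20 to 13.34 and the null arrays at 13.25, 13.95 and 13.19. The high null value at P21 belongs to replicate 2, the array that stands apart. The P49 difference of 0.65 ± 0.18 was not called (adjusted p = 0.0956 in limma), although its groups did not overlap. It was called when null P21 replicate 2 (adjusted p = 0.00581) or null P49 replicate 1 (0.0372) was left out, with adjusted p between 0.00581 and 0.899 over the alternatives. It was also called with the arrays of the contrast alone (adjusted p = 0.0115) and without the 3 arrays of doubtful sex label (0.00952). With the average of its probe sets, which brings in the one below the filter, the difference was 0.22 (adjusted p = 0.899). At P21 the difference was 0.20 ± 0.18 with all arrays and -0.04 without null P21 replicate 2.

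Slc4a4 encodes NBCe1, a sodium and bicarbonate cotransporter that couples glial pH to neuronal activity. The brightest of its 3 tested probe sets was 14.23, 14.52 and 14.25 in wild type and 14.38, 14.73 and 14.73 in null at P49, with overlapping groups and a difference of 0.28 ± 0.17 (adjusted p = 0.631 in limma). The other 2 gave -0.09 and -0.01, so the probe sets differed in sign. Of the signalling genes, Ntsr2, a neurotensin receptor enriched in astrocytes, differed by 0.24 ± 0.14 at P49 (interval -0.06 to 0.54), and Gdf10, a growth factor of the TGF-beta family made by Bergmann glia, by -0.05 ± 0.13 (interval -0.33 to 0.22). Neither was called.

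At P21 none of the 10 genes was called in limma, against 0.0638% of all genes, and 1 had an unadjusted p under 0.05, Gdf10. No gene had groups that did not overlap, against 11.8% of all genes. Gdf10 was 15.31, 15.21 and 15.01 in wild type and 15.24, 15.67 and 15.48 in null animals, a difference of 0.28 ± 0.13 (adjusted p = 0.487 in limma). Without the 3 arrays of doubtful sex label it was 0.07. The median over the 10 genes was 0.07, with 6 positive.

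**Figure D3:**
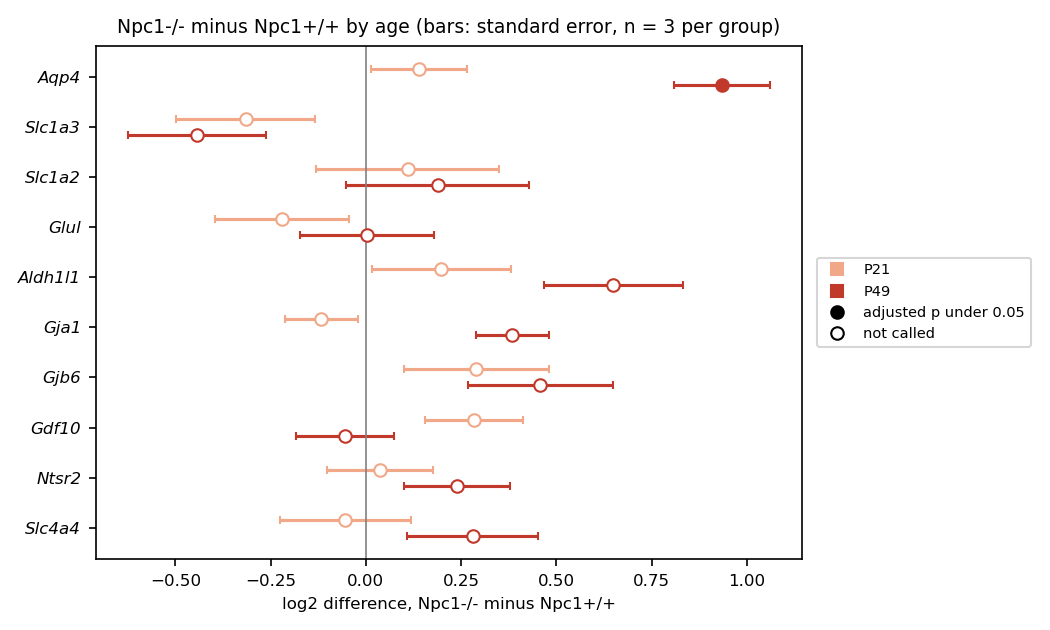
Null minus wild type (log2, x axis) for each gene at P21 and P49, as points with bars of 1 standard error, n = 3 per group. Aqp4 at P49 (0.94) is the only filled, called point, and the brightest probe set of Slc1a3 is farthest below 0 at both ages (-0.32 and -0.44), while its other 2 probe sets gave -0.01 and 0.09 at P21.

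Whether the genotype difference itself changed between the ages was tested as an interaction. None of the 10 genes was called in limma, against 0.549% of all genes, and 2 had an unadjusted p under 0.05. These were Aqp4, at 0.80 ± 0.18 (adjusted p = 0.0797), and Gja1, at 0.50 ± 0.14 (0.192). Aqp4 passed without null P49 replicate 1 (adjusted p = 0.0148) and with the average of its probe sets (0.0224), with adjusted p between 0.0148 and 0.288 over the alternatives. Without the 3 arrays of doubtful sex label the Aqp4 interaction was 0.88 and that of Gja1 0.32, neither called. A larger genotype difference at P49 than at P21 was not shown for the brightest probe set of any of the 10 genes. The further probe set of Aqp4, 1425382_a_at, was called for the interaction at 0.98 (adjusted p = 0.0323 in the limma fit of probe sets, where 0.427% were called, 0.265% higher).

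With age, the neurotensin receptor gene Ntsr2 rose in both genotypes. It was 13.16, 13.03 and 13.56 in wild type and 13.23, 13.41 and 13.22 in null at P21, and 13.91, 14.00 and 14.07 in wild type and 14.06, 14.21 and 14.44 in null at P49. All 6 P49 arrays thus lay above all 6 P21 arrays. The rise was 0.74 ± 0.14 in wild type (1.67-fold, adjusted p = 0.0251) and 0.95 ± 0.14 in null animals (1.93-fold, 0.00146) in limma. The difference between these rises was 0.20 ± 0.20 with all arrays and 0.37 without the 3 arrays of doubtful sex label, neither called. The call in null animals held in all 24 alternatives. That in wild type was lost without wild-type P21 replicate 1 (adjusted p = 0.114) or 2 (0.126) or without wild-type P49 replicate 1 (0.0623), 2 (0.124) or 3 (0.141). It was also lost with median centring (adjusted p = 0.0751), with no trend in the variance (0.0596) and with Xist as a covariate (0.0803), with a range of 0.00858 to 0.141 over all alternatives. Without the 3 arrays of doubtful sex label the rise was 0.63 in wild type and 1.00 in null, where 1 P21 array was left.

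In wild type Ntsr2 was the only 1 of the 10 genes called with age, against 0.702% of all genes (0.166% higher), and the only one whose groups did not overlap, against 21.4% of all genes (10.4% higher). The other 9 differences lay between -0.26 and 0.23. For Slc4a4 the probe sets diverged: the brightest gave 0.12 ± 0.17, and the 2 dimmer ones 0.72 ± 0.20 and 0.63 ± 0.19. The groups of these 2 did not overlap, which was common, at 21.4% of all genes (10.4% higher), and was not counted over all probe sets. Neither was called (adjusted p = 0.200 and 0.248 in limma), where 0.575% of all probe sets were called.

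In null animals 3 of the 10 genes were called with age, against 6.23% of all genes (2.78% higher and 3.45% lower), with Ntsr2 and Aqp4 higher at P49 and Gdf10 lower. The groups did not overlap for these 3 and for Gja1, 3 higher and 1 lower, against 22.5% of all genes (10.5% higher and 12% lower). An unadjusted p under 0.05 in limma was found for 6 of the 10, a share not counted over all genes. Aqp4 rose by 0.65 ± 0.13 (1.57-fold, adjusted p = 0.00789 in limma). Its call was lost without null P49 replicate 2 (adjusted p = 0.0540) and with median centring (0.44, adjusted p = 0.0780), with a range of 0.00191 to 0.0780 over all alternatives. Without the 3 arrays of doubtful sex label, which leaves 1 null P21 array, the rise was 0.67. In wild type Aqp4 differed by -0.14 ± 0.13 between the ages. Gja1 had a difference of 0.31 ± 0.10 in null animals (adjusted p = 0.0726 in limma), 0.17 without those 3 arrays, and 2 of its 6 probe sets were called higher, by 0.55 ± 0.10 and 0.96 ± 0.20, against 4.57% of all probe sets (2.12% higher).

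Gdf10 in null animals was 15.24, 15.67 and 15.48 at P21 and 15.01, 14.74 and 15.04 at P49, and it fell by 0.53 ± 0.13 (adjusted p = 0.0264 in limma). In wild type the difference was -0.20 ± 0.13, and the difference between the genotypes was -0.34 ± 0.18 with all arrays and -0.125 without the 3 arrays of doubtful sex label, neither called. Without those 3 arrays the change with age in null animals was -0.30 (adjusted p = 0.251), a fit in which null P21 is represented by 1 array whose spread is taken from the remaining groups. The call was also lost without null P49 replicate 2 (adjusted p = 0.131) or 3 (0.0520). It was lost with the arrays of the contrast alone (adjusted p = 0.108), with no trend in the variance (0.0535) and with Xist as a covariate (0.0645), with a range of 0.00317 to 0.251 over all alternatives.

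**Figure D4:**
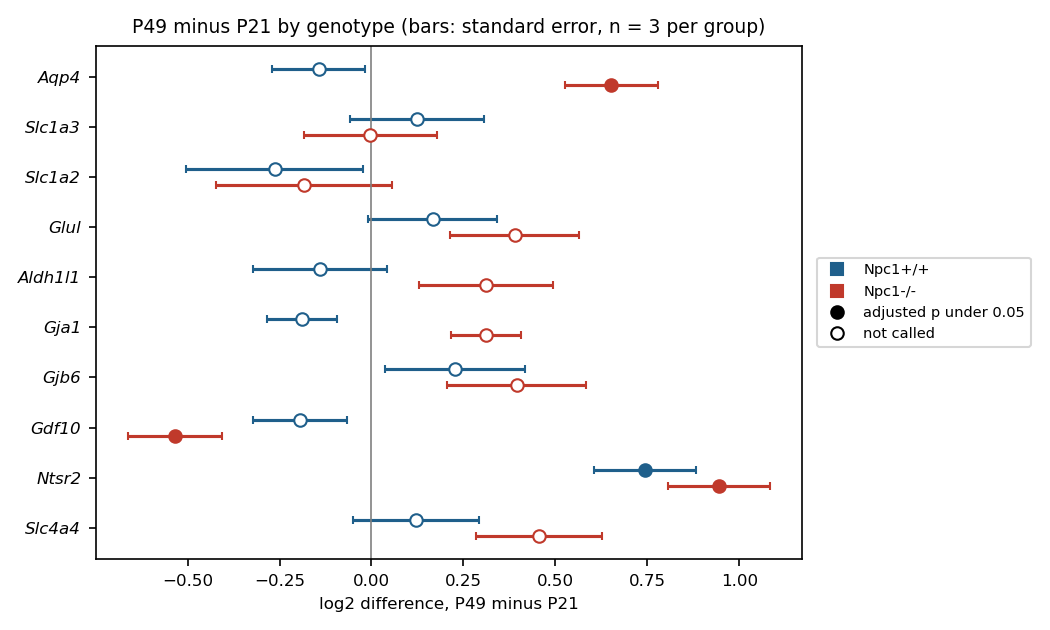
P49 minus P21 (log2, x axis) for each gene in wild-type and null animals, as points with bars of 1 standard error, n = 3 per group. Ntsr2 is called in both genotypes (0.74 and 0.95), and Aqp4 (0.65) and Gdf10 (-0.53) only in null animals, which does not show that the genotypes differ.

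The mean of the 10 genes, each centred on its own mean over the 12 arrays, was 0.09, 0.32 and 0.22 on the null P49 arrays. It lay between -0.14 and 0.01 on the other 9 arrays, so the null P49 arrays were the highest and null P49 replicate 1 the lowest of them. The genes nevertheless differed among themselves. The closest pair by the root mean square difference of centred values over the 12 arrays was Slc1a2 with Gdf10, at 0.21, followed by Aqp4 with Aldh1l1, at 0.22. Slc1a3 had no close partner: its nearest, Glul, differed by 0.40. Many other tested genes were nearer than these partners. Gdf10 ranked 210 in nearness to Slc1a2, and Slc1a2 ranked 576 in nearness to Gdf10. Aldh1l1 ranked 32 for Aqp4, Aqp4 ranked 115 for Aldh1l1, and Glul ranked 5054 for Slc1a3. The pairs are therefore the nearest among the 10 genes only. Among all other tested genes, the 5 nearest to Aqp4 were Lgmn (0.13), Rapgef3 (0.14), Anxa3 (0.15), Pbxip1 (0.16) and Tgfbr1 (0.16). Lgmn, which encodes the lysosomal protease legumain, was 12.97, 13.23 and 12.74 in wild type and 13.81, 14.12 and 13.94 in null at P49.

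A list of 50 further astrocyte and Bergmann glia genes was set beside the 10. Of these 42 had a probe set and 40 were tested. At P49 4 of the 40 rose and none fell, beside 1.52% of all genes called higher. Of the 40 differences 34 were positive, and their median was 0.15, beside -0.02 for all genes. The 4 were Ntrk2, the receptor of brain-derived neurotrophic factor (0.56 ± 0.09, adjusted p = 0.00207), the endothelin receptor gene Ednrb (0.80 ± 0.16, 0.0156), the membrane protein gene Ttyh1 (0.45 ± 0.10, 0.0189) and the peptide transporter gene Slc15a2 (0.63 ± 0.16, 0.0456), all in limma. Ntrk2 was 13.82, 13.95 and 13.90 in wild type and 14.36, 14.50 and 14.48 in null. At P21 none of the 40 was called in limma, and 7 had an unadjusted p under 0.05.

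Some genes are in more than 1 list. Of 13 tested genes of the glutamate and glutamine cycle 1 was called at P49, Slc1a6, which encodes the transporter EAAT4 of Purkinje cells. Slc1a6 is also in the list of Purkinje cell genes below. It fell by 0.83 ± 0.16 (adjusted p = 0.0108 in limma), from 14.93, 14.86 and 14.77 to 14.30, 13.78 and 14.00. None of 14 tested genes that anchor Aqp4 or handle ions and water was called in limma, and 2 had an unadjusted p under 0.05. The genes with the smallest p-values in that list were Mlc1, Slc4a3 and Atp1b2, with log2 differences of 0.29, 0.27 and 0.24. Mlc1 and Atp1b2 are also in the list of further astrocyte and Bergmann glia genes. None of 5 other connexin genes was called in limma, nor had any an unadjusted p under 0.05, with Gjb2 at 0.51 ± 0.35. Of 22 measured genes of reactive astrocytes 8 were bright enough to be tested, and 3 of these rose at P49, beside 1.52% of all genes called higher. They were the filament genes Gfap, by 3.30 ± 0.17 (adjusted p = 5.82e-08 in limma), and Vim, by 1.05 ± 0.17, and the hyaluronan receptor gene Cd44, by 1.63 ± 0.26.

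Markers of other cells moved between the same P49 groups. Over all genes 2.65% were called there, 119 genes higher and 89 lower. The summed intensity of 19 microglia genes was 35650 to 37640 in wild type and 175500 to 220100 in null, with 13 of 15 tested genes higher. That of 19 Purkinje cell genes was 1050000 to 1084000 and 590500 to 791800, with 14 of 19 lower. That of 8 choroid plexus genes was 10100 to 37320 and 80700 to 220000, with none of 3 called in limma and 2 at an unadjusted p under 0.05. The choroid plexus sum also ran from 8759 to 195100 within wild-type P21 and from 8615 to 186700 within null P21. Arrays of the same genotype and age thus differed widely in it, and a genotype difference was not shown. That of 12 genes of meningeal fibroblasts, a list added later, was 36230 to 47940 and 67070 to 72980, with 2 of 11 higher. No gene of these lists was at 0 in any group. The same held for 7 brainstem genes, none of which passed the filter, so it does not show that a cell type was present. The part of these cells in the differences of the 10 genes was not tested. Granule neuron genes were 698400 to 730100 and 680700 to 716500, with none of 15 called in limma or at an unadjusted p under 0.05. Markers of other cells also moved with age in null animals. There 13 of 15 microglia genes and 3 of 11 meningeal genes were higher at P49, beside 2.78% of all genes. Lower were 13 of 19 Purkinje cell genes and 5 of 14 myelin genes, beside 3.45% of all genes. None of 3 choroid plexus genes was called in limma or at an unadjusted p under 0.05. The fall of myelin genes with age was not particular to null animals: in wild type 7 of 14 were lower at P49. There 1 of 4 oligodendrocyte precursor genes was also lower. Over all genes 0.702% were called with age in wild type, 42 of these 55 genes lower. No gene of the microglia, Purkinje cell, meningeal or choroid plexus lists was called with age in wild type in limma. The part of other cells in the changes of Ntsr2, Aqp4 and Gdf10 with age was not tested in either genotype.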

How the data were processed

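The deposited values are linear intensities of 22690 probe sets, including 64 controls. How the authors summarised the probes is not given in the sources used here. Every array had the same mean, 5002, once the lowest and highest 2% of values were removed. The number of arrays limits the precision. Names come from the platform annotation, with symbols brought up to date through a RefSeq table (GRCm38.p6): 20380 had 1 symbol, 691 several and 1555 were not listed.

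Intensities were transformed as log2(value + 16) and quantile normalized. Of 12393 genes, 7835 had a brightest probe set at or above the 40th percentile (intensity 959). 5 contrasts of the 4 group means were fitted to all 12 arrays in limma 3.58.1 (R 4.3.3, eBayes with trend, two-sided, Benjamini-Hochberg over all genes). A second fit took all 13576 probe sets above the filter. The code was tested on simulated data. 95% intervals are limma's, unadjusted. From each glial list, up to 4 called genes with the smallest p at P49 are named, or up to 3 where none was called, and the 5 genes most like Aqp4. Of the lists for other cells, none of 14 myelin genes (3 at an unadjusted p under 0.05), 4 oligodendrocyte precursor genes (1) or 10 endothelial genes (1) was called in limma at P49, and no brainstem gene was tested. The meningeal list was added after seeing the data. The genes, lists and alternatives were chosen with earlier results of these data known. The replicate numbers were not taken to pair the animals. No genome build is named in the files, so positions of probe sets are not given.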

Additional observations from a re-analysis of the deposited data

Results flagged for a closer look

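The probe set 1425382_a_at of Aqp4 was singled out because its genotype difference at P49 and at P21 differed in the test of that difference itself. The interaction was 0.98 on the log2 scale (adjusted p = 0.0323 in the limma fit of all probe sets), with null P49 values of 15.12, 15.41 and 15.49, all above the other 9 arrays. The brighter probe set of Aqp4 gave 0.80 in the same fit and was not called (adjusted p = 0.0935).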

How the results depend on the processing

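Of 1185 recomputed differences of the 10 genes, 1115 kept their direction and side of the threshold, 31 kept direction and changed side, and 39 changed sign, none of these called in either setting. The cause was not tested. Called members at P49 (1 in the report) were 2 with a pseudocount of 64, 3 with the arrays of the contrast alone and 3 without the 3 arrays of doubtful sex label. Calls over all genes also rose, to 213 with a pseudocount of 64 and 400 with the arrays of the contrast alone (208 in the report). For the interaction (0 members called) the average of probe sets gave 1, and for age in wild type (1) median centring, no trend and Xist as a covariate each gave 0. Leaving out single arrays gave 0 to 0 called members at P21, 1 to 3 at P49, 0 to 1 for the interaction, 0 to 1 with age in wild type and 1 to 4 in null, where leaving out null P49 replicate 2 gave 1 (3 in the report). There median centring, the arrays of the contrast alone, no trend, Xist as a covariate and leaving out the 3 doubtful arrays gave 2 each.

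Over all genes, the P21 count (5) was 8 with values as deposited, 3 with a 60th percentile filter, 3 with the average of probe sets and 1 with the arrays of the contrast alone. The P49 count (208) was 400 with the arrays of the contrast alone and 356 without the 3 doubtful arrays. With age in wild type (55) it was 126 with the arrays of the contrast alone, 36 with no trend and 126 without the 3 arrays. In null (488) it was 746 with median centring and 126 with the arrays of the contrast alone. Without single arrays the counts ran from 3 to 27 at P21, 100 to 321 at P49, 18 to 66 for the interaction, 14 to 112 in wild type and 171 to 639 in null. Median centring moved the median of all genes by -0.102 for the interaction and -0.121 for age in null, and the share of calls that were higher from 62.8% to 34.5% and from 44.7% to 16.2%. That share went from 23.6% to 13.5% with age in wild type, and with values as deposited from 80% to 62.5% at P21.

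Signs changed as follows, without any call. With values as deposited Glul at P49 was -0.024. With median centring it was -0.109, Gja1 at P21 0.017, Slc4a4 at P21 0.007 and the Glul interaction -0.053. With the average of probe sets Gja1 at P21 was 0.012, Slc4a4 0.16 at P21, -0.17 at P49 and -0.33 for the interaction, and Aldh1l1 -0.432 for the interaction, 0.333 with age in wild type and -0.099 in null. Without the 3 doubtful arrays, Slc1a2 (-0.134), Aldh1l1 (-0.043), Gja1 (0.051), Ntsr2 (-0.136) and Slc4a4 (0.125) changed sign at P21, as did the Gjb6 interaction (-0.045) and Slc1a3 with age in null (0.131), which was 0.111 with Xist as a covariate. Without single arrays, Slc1a2 for the genotype at P21 ran from -0.041 to 0.288, Aldh1l1 for the genotype at P21 ran from -0.044 to 0.336, Ntsr2 for the genotype at P21 ran from -0.075 to 0.192, Slc4a4 for the genotype at P21 ran from -0.17 to 0.171, Glul for the genotype at P49 ran from -0.164 to 0.124, Gdf10 for the genotype at P49 ran from -0.141 to 0.04, Slc1a3 for the interaction ran from -0.281 to 0.084, Slc1a2 for the interaction ran from -0.099 to 0.254, Slc1a3 for age in wild type ran from -0.068 to 0.268, Slc1a3 for age in null ran from -0.156 to 0.208.

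The replicate block left 0, 1, 0, 1 and 3 called members (P21, P49, interaction, age in wild type, age in null), and 5, 189, 36, 49 and 424 called genes. Deviations of same-numbered arrays correlated between -0.175 and 0.121 at P21, 0.076 and 0.189 at P49, 0.087 and 0.16 with age in wild type, and -0.022 and 0.023 in null, so not every correlation passed 0.1 and the numbers were not taken to pair the animals. All 6 of 6 arrays correlated best with their own number at P49 and with age in wild type, and 2 of 6 at P21 and with age in null, a hint from the data and not from the design. The 3 arrays per group limit what could be detected.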
